A study of Mus musculus with 10 samples.

Results

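In total, 10 genes were examined that make or sense prostanoids, the lipid mediators derived from arachidonic acid: *Ptgs1*, *Ptgs2*, *Ptgis* and *Ptges*, which encode enzymes of synthesis, and *Ptger1*, *Ptger2*, *Ptger3*, *Ptger4*, *Ptgir* and *Tbxa2r*, which encode receptors. They were chosen by symbol as genes of vascular prostanoid synthesis and signalling, and all 10 of these symbols were found among the 55453 in the count table. RNA was measured by poly(A) RNA sequencing of whole aortae, freed of the surrounding fat, from male C57BL/6 mice. The young group held 5 mice aged 14.5 weeks and the old group 5 mice aged 92.5 weeks, with 1 library per mouse, and both groups were killed at the same time. No genetic change or drug treatment was given in the labels for either group, and the labels named no batch of preparation or sequencing.

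Each library held between 19640401 and 22886153 counts on genes. The most abundant marker list was that of smooth muscle, whose 8 genes summed to between 740029 and 949962 normalized counts (counts divided by the DESeq2 size factor of the library). No marker of any list was at 0 in all libraries, and RNA of endothelial, fibroblast, macrophage and fat cell markers was present as well. In such whole-tissue libraries, fewer cells of a type and less RNA per cell cannot be told apart. Old replicate 2 had the highest share of mitochondrial counts, 11.001%, and the others had at most 6.51%.

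The cyclooxygenases encoded by *Ptgs1* and *Ptgs2* oxidize arachidonic acid, freed from membranes by phospholipases A2, to prostaglandin H2. Terminal synthases then turn this common precursor into single prostanoids, such as prostacyclin by the *Ptgis* product and prostaglandin E2 by the *Ptges* product, and each prostanoid acts on G protein coupled receptors. In arteries, prostacyclin from the vessel wall relaxes smooth muscle and restrains platelets through the *Ptgir* receptor, whereas thromboxane A2 contracts smooth muscle and activates platelets through the *Tbxa2r* receptor. Of the prostaglandin E2 receptors, those encoded by *Ptger2* and *Ptger4* raise cyclic AMP, that of *Ptger3* mainly lowers it, and that of *Ptger1* raises intracellular calcium.

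The start regions of 3 genes are shown because the text turns on them: *Ptgir* and *Ptges*, which were higher in old aortae, and *Ptgs2*, the inducible cyclooxygenase, which had the lowest ratio of old to young among the tested genes. Each sequence runs from 250 bases before to 50 bases after the RefSeq transcription start on GRCm38.p6, in the direction of the gene. The *Ptges* start lies inside the longer GENCODE model of that gene, whose first base on the minus strand is at 30929863. Capitals mark matches to the motifs searched. They lie at chr7:16906240-16906539 on the plus strand for *Ptgir*, chr2:30903248-30903547 on the minus strand for *Ptges*, and chr1:150099781-150100080 on the plus strand for *Ptgs2*.
Ptgir: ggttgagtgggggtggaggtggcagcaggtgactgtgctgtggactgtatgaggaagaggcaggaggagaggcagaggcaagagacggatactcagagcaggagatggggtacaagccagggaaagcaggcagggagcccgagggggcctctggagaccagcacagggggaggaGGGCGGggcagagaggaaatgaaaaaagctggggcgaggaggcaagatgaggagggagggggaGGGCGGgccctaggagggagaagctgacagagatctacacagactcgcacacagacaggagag
Ptges: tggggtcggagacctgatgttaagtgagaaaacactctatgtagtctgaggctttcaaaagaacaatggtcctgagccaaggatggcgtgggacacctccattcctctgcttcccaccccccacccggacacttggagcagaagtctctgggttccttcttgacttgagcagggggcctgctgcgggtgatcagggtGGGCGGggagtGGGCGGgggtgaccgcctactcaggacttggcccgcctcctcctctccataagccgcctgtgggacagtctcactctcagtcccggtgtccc
Ptgs2: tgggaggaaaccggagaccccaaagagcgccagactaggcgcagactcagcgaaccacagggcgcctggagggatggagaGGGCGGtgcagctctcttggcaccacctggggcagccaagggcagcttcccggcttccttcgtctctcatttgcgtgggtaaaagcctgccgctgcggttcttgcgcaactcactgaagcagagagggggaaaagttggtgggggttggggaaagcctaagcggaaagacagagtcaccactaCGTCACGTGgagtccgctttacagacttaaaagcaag

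The RefSeq table held windows for 8 of the 10 genes, and not for *Ptgis* and *Ptger1*. Of the motifs searched on both strands, the GC box (GGGCGG) was present in 6 of these 8 genes and in 35.7% of all 32851 promoter windows of that length. *Ptgir* and *Ptges* each held it 2 times and *Ptgs2* held it 1 time. An E-box (CACGTG) was found in *Ptgs2* alone, against 7.15% of all windows. It overlapped the CRE half-site (TGACG) of the same window, which was present in 2 of the 8 genes and in 20.8% of all windows. The letters of the TATA box (TATAAA, 13.6% of all windows), the AP-1 site (TGANTCA, 7.81%), the EGR site (GCGNGGGCG, 5.55%) and the CArG box (1.63%) were in none of the 8.

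To place the genes on a common scale, normalized counts were divided by the exonic length in kb and the genes ordered by their mean over all 10 libraries. *Ptgis* stood far above the rest, at 6821 ± 1137 normalized counts per kb (SD, n = 5) in the young and 7185 ± 654 in the old group, which is above 99.5% of the tested genes. *Tbxa2r* came next at 433 ± 53.6 per kb in young and 405 ± 23.4 in old aortae, below *Ptgis* in 10 of 10 libraries and with ranges that did not overlap. The constitutive cyclooxygenase *Ptgs1* followed with 149 ± 32.8 and 135 ± 6.17 per kb, again without overlap with *Tbxa2r*. Prostacyclin synthase and the thromboxane receptor thus had the most abundant RNA of the set at either age.

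Below these, neighbours lay closer together. *Ptgs1* exceeded *Ptgs2* (132 ± 31.2 per kb in young and 96.6 ± 20.5 in old aortae) in 8 of 10 libraries, with overlapping ranges. *Ptgs2* exceeded *Ptger3* (67.3 ± 16.7 and 67.2 ± 15.9 per kb) in 10 of 10 libraries, although the ranges overlapped. The order of *Ptger3*, *Ptgir* and *Ptges* differed between the ages. *Ptger3* was above *Ptgir* in 5 of 5 young but 1 of 5 old aortae, and *Ptgir* was above *Ptges* in 3 of 5 young and 5 of 5 old.

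*Ptgir* reached 40.1 ± 5.01 per kb in young and 85.4 ± 18.6 in old aortae, and *Ptges* 40.0 ± 13.7 and 68.7 ± 8.86. *Ptger4* followed at 24.0 ± 9.92 and 24.2 ± 3.39 per kb, below *Ptges* in 9 of 10 libraries. *Ptger1* had 10.3 ± 2.43 and 18.2 ± 1.81 per kb, below *Ptger4* in 10 of 10 libraries. *Ptger2* was the least abundant at 0.894 ± 0.634 and 3.20 ± 1.30 per kb, above 0.868% of the tested genes and without overlap with *Ptger1*.

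**Figure D1:**
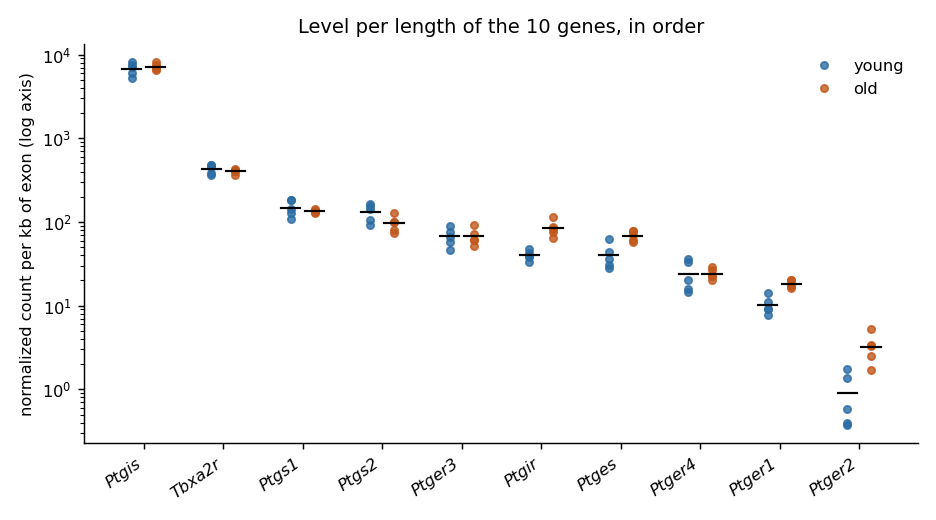
Normalized count per kb of exon (log axis) of the 10 genes in each of 5 young (blue) and 5 old (orange) aortae, with a black line at each group mean. *Ptgis* lies alone at the top near 7185 in old aortae, and *Ptger2* at the bottom, with a mean of 3.20 in old and 0.894 in young aortae.

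To ask which of the genes differ with age, old aortae were compared with young by edgeR's quasi-likelihood test on all 14614 genes that passed the low-count filter, with Benjamini-Hochberg adjustment over all of them and a call at an adjusted p below 0.05. Of the 9 genes tested, 3 were called, all of them higher in old aortae: *Ptgir*, *Ptger1* and *Ptges*. Over all genes tested the share called was 11.5%, with 6.48% higher and 4.99% lower. Groups without overlap were seen for *Ptgir* and *Ptger1*, where all 5 old aortae lay above all 5 young aortae, and such a complete separation held for 9.92% of all genes tested, 5.37% upwards and 4.55% downwards. The other 6 tested genes, *Ptgs1*, *Ptgs2*, *Ptgis*, *Ptger3*, *Ptger4* and *Tbxa2r*, were not called, and *Ptger2* was too low for the filter.

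**Figure D2:**
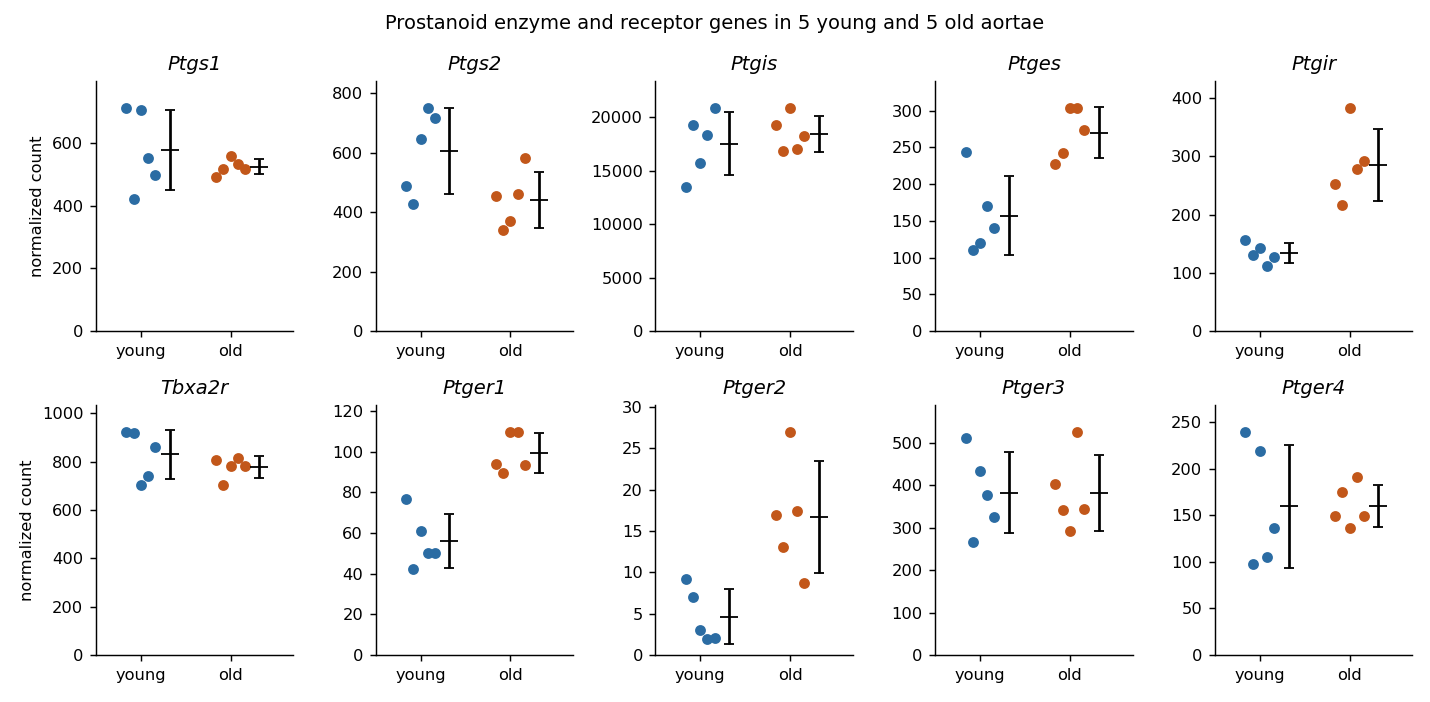
Normalized count of each of the 10 genes, with 1 point per aorta (young blue, old orange) and the mean ± SD (n = 5) beside the points, on axes that start at 0. The old points of *Ptgir* lie between 217 and 383, above all young points, which lie between 112 and 156, whereas those of *Ptgis*, *Ptger3* and *Tbxa2r* overlap with the young points.

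Among the enzymes, the constitutive cyclooxygenase gene *Ptgs1* (chr2:36230426-36252272, plus strand) had 712, 423, 705, 550.4 and 499 normalized counts in young replicates 1 to 5, and 493, 518, 557, 534 and 516 in old replicates 1 to 5. The young values enclosed the old, and the wider spread was in the young group. The means were 578 ± 128 in young and 524 ± 24.0 in old aortae, and the difference was not called (log2 fold change -0.13, SE 0.13, edgeR adjusted p = 0.554). The 95% confidence interval of the fold, 0.752 to 1.10, bounds the change that these libraries allow.

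The inducible cyclooxygenase gene *Ptgs2* (chr1:150100031-150108227, plus strand) had 487, 426, 647, 750.3 and 717 normalized counts in young replicates 1 to 5, and 456, 341, 372, 461 and 582 in the old. The 3 highest values were all young, yet old replicate 5 lay above young replicates 1 and 2. The means were 605 ± 143 in young and 442 ± 94.0 in old aortae. On the log2 scale the difference was -0.44 (SE 0.18, edgeR unadjusted p = 0.0309, adjusted p = 0.140), which was not called. The exact two-sided permutation test of the normalized counts gave p = 0.0794. The 95% confidence interval of the fold was 0.559 to 0.967.

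Because *Ptgs2* is an immediate early gene in many cells, the 13 other genes of that kind on the marker list were read beside it. They summed to between 30060.4 and 75295 normalized counts in young and between 20078 and 44888 in old aortae, with 1 of 13 called higher (*Junb*) and 2 lower (*Fosb* and *Atf3*), and with a median log2 fold change of -0.39. The young libraries with the highest sums were replicates 1 and 3, and those with the highest *Ptgs2* were replicates 4 and 5. Their part in the *Ptgs2* values was not tested. The ratio of *Ptgs2* to *Ptgs1*, both per kb, was 0.917 ± 0.267 in young and 0.719 ± 0.166 in old aortae, with overlapping groups.

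Prostacyclin synthase, the product of *Ptgis* (chr2:167191805-167240604, minus strand), makes the main prostanoid of the vessel wall. Its RNA stood at 13492, 19244, 15671, 18334 and 20809.7 normalized counts in young replicates 1 to 5 and at 19281, 16785, 20860.1, 17051 and 18249 in the old. The groups overlapped throughout. The means of 17510.3 ± 2919.6 and 18445 ± 1679 differed by a log2 fold change of 0.08 (SE 0.11, edgeR adjusted p = 0.679), and the 95% confidence interval of the fold was 0.901 to 1.25.

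The gene of the inducible microsomal prostaglandin E synthase, *Ptges* (chr2:30889471-30929863, minus strand), was higher in old aortae. Young replicates 1 to 5 had 244, 111, 121, 171 and 140.4 normalized counts, and old replicates 1 to 5 had 228, 242, 304, 304 and 273. Young replicate 1 lay above old replicates 1 and 2, and the other 4 young libraries lay below all the old ones. The means were 157 ± 53.8 in young and 270.1 ± 34.8 in old aortae.

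The log2 fold change of *Ptges* was 0.79 (SE 0.19, edgeR adjusted p = 0.0191), a fold of 1.73 with a 95% confidence interval of 1.30 to 2.30, and the exact two-sided permutation test gave p = 0.0238. By p-value it was 589 of the 947 genes called higher. The call was lost when either of 2 mice was left out, since without young replicate 5 the edgeR adjusted p was 0.0528, and without old replicate 3 it was 0.0508, with a log2 fold change of 0.74 in either case. Without young replicate 1, which also had the highest sum of fat cell markers (35787 normalized counts, against 6004 to 18897 in the other libraries), it was 1.00 with an adjusted p of 0.00069. The part of fat cells in the values was not tested.

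Among the receptors, the prostacyclin receptor gene *Ptgir* (chr7:16906490-16910905, plus strand), whose start region is printed above, showed the clearest difference. Its normalized counts were 156, 131, 143, 112 and 127 in young replicates 1 to 5, and 253, 217, 383, 278 and 293 in old replicates 1 to 5. Every old aorta lay above every young one, with old replicate 3 the highest and old replicate 2 the lowest of the old. The means were 134 ± 16.7 in young and 285 ± 62.1 in old aortae.

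*Ptgir* thus rose by a log2 fold change of 1.10 (SE 0.15, edgeR adjusted p = 0.000459), a fold of 2.14 with a 95% confidence interval of 1.72 to 2.66. By p-value it was 87 of the 947 genes called higher. The exact two-sided permutation test gave p = 0.0079, the smallest that 5 against 5 mice allow. It was called in 18 of 18 alternative fits without a replicate block, with log2 fold changes from 0.97 without old replicate 3 (adjusted p = 0.000622) to 1.18 without old replicate 2.

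The thromboxane receptor gene *Tbxa2r* (chr10:81328731-81335172, plus strand) had 925, 921, 702, 743 and 862 normalized counts in young and 808, 702, 781, 814 and 783 in old replicates 1 to 5. The lowest old and the lowest young value were nearly equal, and the other old values lay inside the young range. The means were 830.4 ± 103 and 778 ± 44.8, and the log2 fold change of -0.09 (SE 0.08, edgeR adjusted p = 0.555) was not called, with a 95% confidence interval of the fold of 0.833 to 1.07.

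Since both receptors act on smooth muscle in opposite directions, their levels per kb were set against each other in each mouse. Whole aortae do not show which cells held either RNA. As *Tbxa2r* was not called, the comparison largely repeats the *Ptgir* difference. The ratio of *Ptgir* to *Tbxa2r* was 0.0973, 0.0818, 0.117, 0.0868 and 0.0849 in young replicates 1 to 5, and 0.180, 0.178, 0.282, 0.196 and 0.215 in the old. The groups did not overlap, and the mean was 0.0935 ± 0.0143 in young and 0.210 ± 0.0429 in old aortae. In each of the 10 libraries *Tbxa2r* RNA nevertheless remained the more abundant, as the ratio was below 1.

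**Figure D3:**
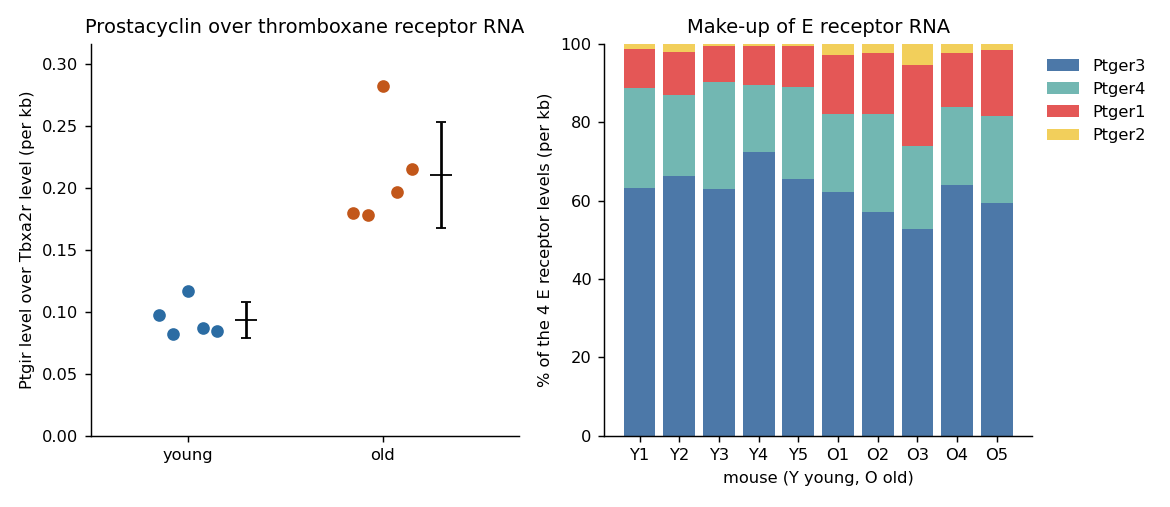
Left, level of *Ptgir* over that of *Tbxa2r*, both per kb of exon, with 1 point per aorta and the mean ± SD (n = 5). Right, share of each of the 4 prostaglandin E2 receptor genes in their summed level per kb, with 1 stacked bar per aorta. The old ratios (0.178 to 0.282) lie above all young ratios (0.0818 to 0.117), and the *Ptger1* share averages 16.4% in old against 10.1% in young aortae.

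Of the 4 prostaglandin E2 receptor genes, *Ptger1*, whose product signals through calcium, was called, *Ptger3* and *Ptger4* were not, and *Ptger2* was not tested with them. *Ptger1* had 76.7, 42.3, 60.8, 50.2 and 50.2 normalized counts in young replicates 1 to 5, and 93.9, 89.4, 110.0, 109.9 and 93.3 in the old. All old aortae lay above all young ones, and young replicate 1 was the nearest to them. The means of 56.0 ± 13.3 and 99.3 ± 9.87 gave a log2 fold change of 0.83 (SE 0.17, edgeR adjusted p = 0.00661), a fold of 1.78 with a 95% confidence interval of 1.39 to 2.29.

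The exact two-sided permutation test for *Ptger1* gave p = 0.0079, and the call held in 18 of 18 alternative fits, with log2 fold changes from 0.74 to 0.97 when single mice were left out. Annotation on the opposite strand overlaps 71.0% of the exonic length of *Ptger1* (chr8:83666678-83672753, plus strand). Since the strand setting of the counting is not given in the sources used here, reads from both strands may be mixed, and the *Ptger1* values are uncertain in this respect.

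*Ptger2* (chr14:44988195-45003820, plus strand), whose product raises cyclic AMP, was rare. Its normalized counts were 9.20, 7.04, 2.99, 1.93 and 2.05 in young replicates 1 to 5, and 17.0, 13.1, 27.0, 17.4 and 8.75 in the old. The old aortae were higher except that old replicate 5 lay below young replicate 1. In all, 23 reads were counted in the young and 85 in the old group.

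With so few counts *Ptger2* did not pass the low-count filter and was not tested with the others. Its means were 4.64 ± 3.29 and 16.6 ± 6.77, a ratio of 3.58 (1.84 on the log2 scale), and the exact two-sided permutation test gave p = 0.0159, not adjusted for other genes. Without the low-count filter, edgeR gave it a log2 fold change of 1.83 (adjusted p = 0.0078), and DESeq2 gave 1.85 (adjusted p = 0.00551). Of the 9 alternative fits that tested *Ptger2*, 8 called it, with adjusted p up to 0.0503. Where a mouse was left out, it passed the filter only through the old libraries.

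*Ptger3* (chr3:157566892-157645888, plus strand), whose product lowers cyclic AMP, was the most abundant E receptor gene at either age. It had 511, 266, 435, 379 and 325 normalized counts in young and 404, 342, 293, 527 and 345 in old replicates 1 to 5, so that both groups covered nearly the same range. The means were 383 ± 95.2 and 382 ± 90.2 (log2 fold change 0.01, SE 0.19, edgeR adjusted p = 0.991), with a 95% confidence interval of the fold of 0.753 to 1.34.

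*Ptger4* (chr15:5206661-5244187, minus strand) encodes the other receptor that raises cyclic AMP. It had 240.2, 97.6, 219, 105 and 136 normalized counts in young and 149.9, 175, 136, 192 and 149.7 in old replicates 1 to 5, with all old values inside the young range. The means were 159.7 ± 66.0 and 161 ± 22.5 (log2 fold change 0.02, SE 0.24, edgeR adjusted p = 0.978). The 95% confidence interval of the fold was 0.701 to 1.46, and other genes overlap 16.5% of its exonic length.

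Per kb, *Ptger3* made up 66.1% ± 3.75 of the summed E receptor RNA in young and 59.1% ± 4.36 in old aortae. The share of *Ptger4* was 22.9% ± 3.95 and 21.6% ± 2.15. *Ptger1* took 10.1% ± 0.678 in young and 16.4% ± 2.62 in old aortae, groups that did not overlap, and *Ptger2* took 0.901% ± 0.670 and 2.91% ± 1.43. These shares sum to 1 whole in each mouse and so do not vary independently of each other.

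**Figure D4:**
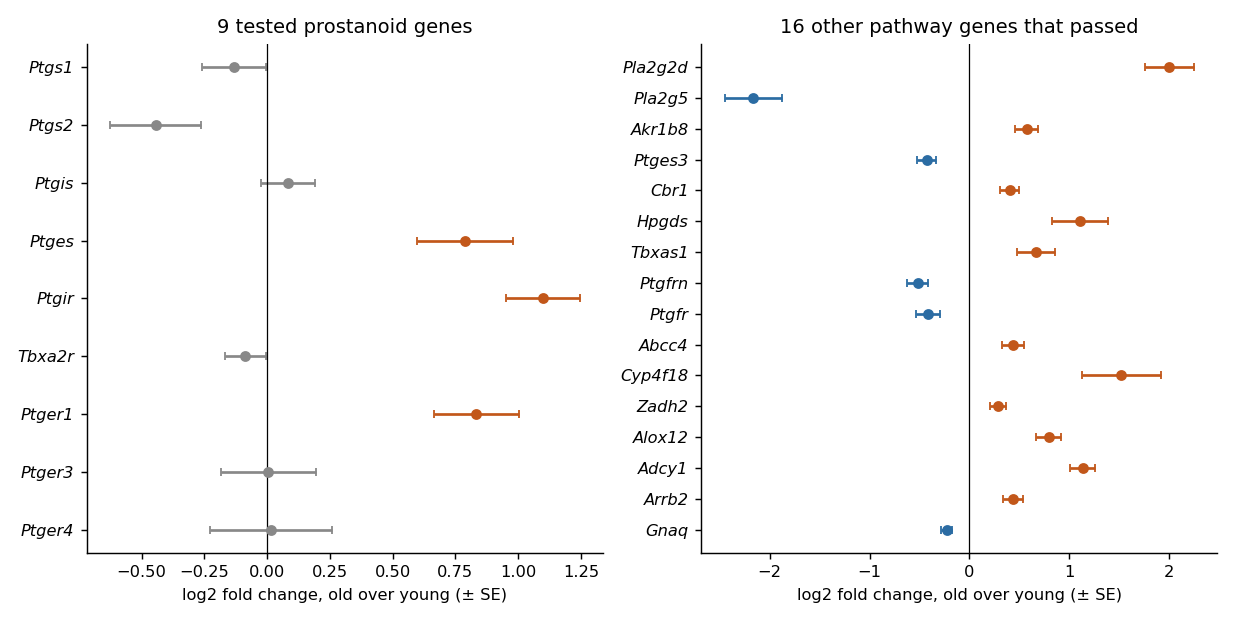
Log2 fold change of old over young aortae from edgeR, with an SE worked out from the F statistic of its test. The 9 tested genes are on the left, and the 16 genes called in the other pathway lists on the right. Orange marks genes called higher, blue genes called lower and grey genes not called. *Ptgir* (1.10), *Ptger1* (0.83) and *Ptges* (0.79) stand to the right of 0 on the left, and *Pla2g2d* (2.00) and *Pla2g5* (-2.17) are the extremes on the right.

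To see the genes in their pathway, 90 further genes in 6 lists, chosen with earlier results of these data known, were read from the same fit. Of these, 72 were tested, and 11 were called higher and 5 lower. This was a share of 22.2% against 11.5% of all genes tested, and the choice of lists bears on it. The median log2 fold change was 0.04 against 0.00 for all genes. Among the higher calls, *Cyp4f18* was low in young aortae and passed the low-count filter through the old ones. The higher calls were fewer without some single mice. There were 5 higher and 5 lower without young replicate 2, and 6 higher with 4 lower without young replicate 5 or old replicate 3. Without young replicate 4 there were 6 higher and 5 lower, and without old replicate 4 there were 7 higher and 4 lower.

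Of 18 genes of phospholipases A2, 11 were tested, and 1 rose and 1 fell. *Pla2g2d*, a secreted enzyme, rose from 38.4 ± 9.24 to 153 ± 46.6 normalized counts (log2 fold change 2.00, SE 0.25, edgeR adjusted p = 0.000285). *Pla2g5*, another secreted enzyme, fell from 99.8 ± 32.1 to 22.03 ± 8.45 (log2 fold change -2.17, SE 0.28, adjusted p = 0.000418). The groups overlapped for neither of them, and both were called in 18 of 18 alternative fits.

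These oppositely changed genes are neighbours on chromosome 4, 17197 bases apart with no annotated gene between them. The cytosolic *Pla2g4a*, which supplies arachidonic acid to the cyclooxygenases, averaged 2046 ± 395 normalized counts in young aortae against 2044 ± 236 in old (edgeR adjusted p = 0.981). The abundant *Pla2g15* (log2 fold change 0.17, adjusted p = 0.0890) and *Pla2g16* (log2 fold change -0.27, adjusted p = 0.426) were not called either.

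Of 10 genes of other terminal synthases, 9 were tested, and 4 rose and 1 fell. *Hpgds*, the prostaglandin D synthase of mast cells and macrophages, had 90.0, 41.3, 84.7, 48.3 and 44.1 normalized counts in young and 84.9, 110.1, 201, 149 and 113 in old replicates 1 to 5. Old replicate 1 lay below young replicate 1, and the other old aortae above all young ones (log2 fold change 1.10, SE 0.28, edgeR adjusted p = 0.0243). The call was lost without young replicates 2, 4 or 5 or old replicates 3 or 4, left out singly, with adjusted p from 0.0530 to 0.0676.

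*Tbxas1*, the thromboxane synthase of platelets and macrophages, had 74.6, 72.5, 59.8, 60.8 and 62.5 normalized counts in young and 77.9, 94.8, 159, 99.3 and 90.4 in old replicates 1 to 5. The groups did not overlap, but old replicate 3 stood far above the others (log2 fold change 0.67, SE 0.19, edgeR adjusted p = 0.0365). Without it the log2 fold change was 0.46 and the adjusted p 0.0653, and the call was also lost without young replicate 2, 3, 4 or 5 or old replicate 4, with adjusted p up to 0.0876.

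*Akr1b8*, an aldo-keto reductase gene, rose from 284 ± 26.6 to 420.0 ± 77.0 normalized counts (log2 fold change 0.57, SE 0.12, edgeR adjusted p = 0.00762). *Cbr1*, whose product reduces prostaglandin E2 to F2 alpha, rose from 409 ± 52.7 to 538 ± 54.9 (log2 fold change 0.40, SE 0.10, adjusted p = 0.0177), a call lost without young replicate 2 (adjusted p = 0.0513) or 5 (0.0509). *Ptges3*, a cochaperone of Hsp90 also known as the cytosolic prostaglandin E synthase, fell from 1445 ± 202 to 1069.7 ± 82.5 (log2 fold change -0.43, SE 0.09, adjusted p = 0.0114). A processed pseudogene, *Ptges3-ps*, is annotated elsewhere, and whether reads were split with it was not tested.

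Thus *Ptges* and *Ptges3* moved in opposite directions. The remaining E synthase gene, *Ptges2*, had 320.5 ± 18.3 and 309 ± 24.7 normalized counts (log2 fold change -0.04, edgeR adjusted p = 0.767). *Akr1b3* (log2 fold change 0.23, adjusted p = 0.0687) and *Akr1c18* (log2 fold change 0.92, adjusted p = 0.134) were not called.

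Of 6 other genes of prostanoid receptors, nuclear receptors and a receptor regulator, 4 were tested. The receptor regulator and 1 receptor gene were called, both lower. *Ptgfrn*, whose product is a negative regulator of the prostaglandin F2 alpha receptor, fell from 3228 ± 239 to 2243 ± 387 normalized counts (log2 fold change -0.52, SE 0.11, edgeR adjusted p = 0.00783). *Ptgfr*, the contractile F2 alpha receptor gene itself, had 232, 263, 179.5, 179.6 and 251 normalized counts in young and 158, 162, 169.6, 160 and 174 in old replicates 1 to 5, without overlap. Its log2 fold change was -0.41 (SE 0.12, adjusted p = 0.0404), but it was called in only 6 of 18 alternative fits, and the adjusted p ranged from 0.0161 to 0.104. The call was lost without young replicate 1, 2 or 5 or any single old replicate. With all mice kept, it was also lost in limma-voom (adjusted p = 0.0592) and in edgeR with the GC and length correction (0.0743). The same held for edgeR with upper-quartile scaling (adjusted p = 0.0560) or library size alone (0.0565).

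The nuclear receptor genes *Ppard* (log2 fold change -0.09, edgeR adjusted p = 0.411) and *Pparg* (log2 fold change 0.00, adjusted p = 0.994) were not called. *Ptgdr2*, a prostaglandin D2 receptor gene, had 2 counts in each group and was not tested.

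Of 10 genes of transport and breakdown, 3 of 10 tested rose and none fell by the same test. *Abcc4*, an exporter of prostaglandins, rose from 217 ± 29.5 to 292 ± 30.9 normalized counts (log2 fold change 0.43, SE 0.11, edgeR adjusted p = 0.0223), a call lost without young replicate 2, 4 or 5 or old replicate 3 or 4, with adjusted p up to 0.0610. *Zadh2*, a prostaglandin reductase gene, rose from 1137 ± 119 to 1376 ± 122 (log2 fold change 0.28, SE 0.08, adjusted p = 0.0398), and *Cyp4f18*, a cytochrome P450 gene, from 8.43 ± 1.75 to 24.3 ± 14.0 (log2 fold change 1.52, SE 0.40, adjusted p = 0.0250).

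*Zadh2* and *Cyp4f18* were each called in 12 of 18 alternative fits. For *Zadh2* the call was lost without young replicate 2, 4 or 5 or old replicate 1, 3 or 4, with adjusted p up to 0.104. For *Cyp4f18* it was lost without young replicate 2, 3 or 4 or old replicate 2 or 3, with adjusted p up to 0.0642. The abundant *Slco3a1* and *Cbr3* were not called. *Hpgd*, the dehydrogenase that begins prostaglandin breakdown, and *Slco2a1*, a prostaglandin importer, were picked after their values were seen. Neither was called, with log2 fold changes of 0.55 (edgeR adjusted p = 0.153) for *Hpgd* and 0.17 (adjusted p = 0.542) for *Slco2a1*.

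In the leukotriene and lipoxygenase branch, which shares arachidonic acid as its substrate, 8 of 16 genes were tested and 1 rose. This was *Alox12*, a platelet-type lipoxygenase gene, with 83.7 ± 6.36 normalized counts in young aortae against 144 ± 18.9 in old (log2 fold change 0.79, SE 0.12, edgeR adjusted p = 0.00135). The abundant *Cmklr1*, *Ephx2* and *Lta4h* were not called, with adjusted p from 0.164 to 0.687.

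Downstream of the receptors, 30 of 30 genes of G protein coupling and cyclic AMP were tested, of which 2 rose and 1 fell, or 10.0%, near the share of all genes. *Adcy1*, an adenylyl cyclase gene, rose from 159 ± 17.7 to 348 ± 59.6 normalized counts (log2 fold change 1.13, SE 0.13, edgeR adjusted p = 0.000137). The far more abundant *Adcy5* had 23030.0 ± 2195 and 23103 ± 1112 (adjusted p = 0.937). *Arrb2*, whose product uncouples activated receptors, rose from 306 ± 18.7 to 412 ± 61.1 (log2 fold change 0.43, SE 0.10, adjusted p = 0.0133), and *Gnaq*, the G protein subunit that links receptors to calcium release, fell from 2237 ± 71.9 to 1899.6 ± 127 (log2 fold change -0.23, SE 0.06, adjusted p = 0.0190). *Gnai2* and *Prkar1a* were not called.

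Marker genes of other cells moved in the same libraries. Of 10 macrophage markers, 5 were called higher and none lower (*Adgre1*, *Cd68*, *Fcgr1*, *C1qa* and *C1qb*), with a median log2 fold change of 0.66. Their sum ranged from 8712 to 11219.7 normalized counts in young and from 11363 to 22452 in old aortae, without overlap. Old replicate 3 had the highest macrophage sum. The same library had the highest T and B cell (453) and platelet (699.9) sums and the lowest endothelial sum (12137). It was also the highest of the 10 libraries in 5 of the 10 prostanoid genes (*Ptgis*, *Ptges*, *Ptgir*, *Ptger1* and *Ptger2*). Its lead was narrow for *Ptgis* (20860.1 against 20809.7 in young replicate 5), *Ptges* (303.83 against 303.69 in old replicate 4) and *Ptger1* (109.98 against 109.91 in old replicate 4). It was highest as well in 8 of the 16 called pathway genes, which were mostly called higher (*Pla2g2d*, *Hpgds*, *Tbxas1*, *Akr1b8*, *Cbr1*, *Zadh2*, *Cyp4f18* and *Alox12*). The share of all genes highest in this library was not worked out.

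Of 8 mast cell markers, 6 were tested, 4 were called higher (*Cpa3*, *Cma1*, *Mcpt4* and *Tpsb2*) and 1, *Kit*, lower. The 4 genes called higher, which encode proteases, had means of 38.6 to 61.7 normalized counts in young and of 76.0 to 142 in old aortae. *Kit* had 682 ± 178 and 363 ± 117 and made up most of the list's sum in young aortae, so that the sums, 591 to 1239 in young and 698 to 946 in old aortae, overlapped. Of 8 platelet and megakaryocyte markers, 4 were tested and 1 was called higher (*Itga2b*), with sums of 289 to 443 and of 418 to 699.9. The part of macrophages, mast cells and platelets in the receptor and synthase values was not tested.

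Of 10 endothelial markers, 1, *Tek*, was called lower and none higher, with a median log2 fold change of -0.58 and overlapping sums of 23036 to 39049 in young and 12137 to 27692 in old aortae. Of 8 smooth muscle markers, 1, *Smtn*, was called higher and none lower, and of 8 fibroblast markers 1 was called higher (*Lum*) and 1 lower (*Pi16*). None of the 7 fat cell markers tested or the 6 Schwann cell markers tested was called by edgeR, with median log2 fold changes of -1.003 and 0.34, and T and B cell markers had 1 of 4 tested called higher (*Cd4*). The 7 mesothelial markers summed to at most 42.9 normalized counts in any library, and none of them passed the filter.

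Lastly, the genes whose levels followed those of the 3 called genes most closely across the 10 mice, after the group means were removed and each gene was scaled to unit variance, were found by the root-mean-square difference. For *Ptgir* these were *Rhof* (0.304), *Fam149a* (0.304) and *Pltp* (0.318). For *Ptges* they were *Emid1* (0.267), *Bphl* (0.341) and *Ndufa10* (0.354), and for *Ptger1* they were *Ikzf3* (0.145), *Egr3* (0.272) and *Acot2* (0.316). These are descriptions over 10 libraries, picked as the closest among all tested genes.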

How the data were processed

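Poly(A) RNA libraries from 5 young and 5 old aortae were compared, grouped by the age in the labels. The authors trimmed the reads with fastp 0.20.0, aligned them to GRCm38 with STAR 2.7.0f and counted them per gene with featureCounts of Subread 1.6.4 (versions from the submitters' processing notes). They deposited whole-number counts per gene symbol, not normalized. The labels describe a stranded kit, and the strand setting of the counting and the treatment of reads with several alignments are not given in the sources used here.

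Counts of 14614 genes kept by filterByExpr were tested with edgeR 4.0.16 (quasi-likelihood, robust, scaled by TMM and without covariates) in R 4.3.3, two-sided, at a Benjamini-Hochberg adjusted p below 0.05 over all tested genes, of which 1676 were called. The authors used DESeq2. Levels are counts divided by DESeq2 1.42.0 size factors, as mean ± SD over 5 mice. Exact permutation tests compared the group means of a gene's normalized counts over all assignments of the mice. P-values measure the spread between these mice. The SE of a log2 fold change is its absolute value divided by the square root of edgeR's F statistic. The 95% confidence intervals were built from this SE with a t quantile. Exonic lengths and gene positions came from GENCODE M21, whereas the authors used M22, and 3 listed symbols were found under newer names. Start regions came from RefSeq (GRCm38.p6).

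The genes and lists were chosen with earlier results of these data known. From each pathway list, called genes (6 at most, by p) and the 3 of highest level per kb were named, except that some results are not reported here. The nearest genes by pattern were 3 per called gene. Alternatives were DESeq2, limma-voom (limma 3.58.1), other scalings, other filters, a correction for GC content and length, a threshold of 0.01, the replicate number as a block and leaving out single mice. The fit was tested on simulated data.

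Total counts were 19640401 to 22886153 per library. Within a group, pairs of libraries had a chi-square per degree of freedom of 8.06 to 58.8, where counting error alone would leave 1, so that no library was counted as deposited 2 times.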

Additional observations from a re-analysis of the deposited data

Results flagged for a closer look

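In 86 groups of 5 libraries, 1 library was looked for that stood apart from the other 4 by Dixon's ratio (above 0.71), and 5 were found. Chance gives about 1 in 20 groups. None of the 10 prostanoid genes was among them.

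In old replicate 3, *Pla2g4a* had 2460.5 normalized counts, with the nearest old library at 1986, and *Tbxas1* had 159, with the nearest at 99.3. In the young group, *Akr1b8* had 239 in replicate 4 (nearest 286), *Cmklr1* had 1605 in replicate 5 (nearest 1409), and *Prkar1a* had 10364 in replicate 1 (nearest 11066).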

How the results depend on the processing

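*Ptgir* and *Ptger1* were called higher in 18 of 18 alternative fits without a replicate block, and *Ptges* in 16, lost without young replicate 5 or old replicate 3. The number of the 10 genes called was 3, and ranged from 2 (without old replicate 3) to 4 when mice were left out. It was 4 in DESeq2 and 2 at an adjusted p below 0.01. Wherever 4 were called higher, the added gene was *Ptger2*. When a mouse was left out, *Ptger2* passed the low-count filter only through the old libraries, so its added calls rest on the group where it is high. The order of levels over both ages pooled was the same in 12 of 12 alternatives, none of which took the ages apart. Pathway genes called numbered 16, with 6 (4 higher, 2 lower) at the 0.01 threshold and 10 to 17 when mice were left out (10 without young replicate 2, young replicate 5 or old replicate 3). Uncalled values near 0 changed sign: *Ptger3* was -0.0028 in DESeq2, -0.0026 in edgeR with DESeq2 size factors and -0.14 to 0.13 when mice were left out, and *Ptger4* -0.12 to 0.21. Replicate numbers did not pair the mice: the correlations of same-numbered deviations were -0.30, -0.07, 0.10, -0.05 and 0.13, and 2 of 5 were best with their own number. The replicate block gave 4 of the 10 genes (*Ptgs2* added as lower, log2 fold change -0.44, adjusted p = 0.0366) and 11 pathway genes. Over all genes, edgeR called 1676, DESeq2 2321, the block 1261, and fits without 1 mouse 1132 to 2367. *Ptger2*, with 23 and 85 counts, is limited by depth. The median log2 fold change of all genes stayed within 0.031 of 0 under every scaling.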
